A study of Mus musculus with 4 samples.

Results

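The 10 genes described here make up the core of MHC class I presentation and antigen processing in the mouse: the light chain B2m, the heavy chains H2-K1, H2-D1, H2-Q6, H2-Q7 and H2-T23, the peptide transporter subunit Tap1, the loading chaperone tapasin (Tapbp) and the immunoproteasome subunits Psmb8 and Psmb9. They were matched by gene symbol, and all 10 of 10 were found among the 27998 genes counted. Their levels were read in alveolar epithelial type 2 (AT2) cells, the surfactant-making cells of the lung alveolus, defined as barcodes with at least 500 genes, at most 20% mitochondrial counts and at least 5% of counts from Sftpc, the surfactant protein C gene. This left 2308 of 2394 cells in the 3-month PBS library, 2570 of 2745 in the 12-month PBS library, 2299 of 2624 in the 3-month bleomycin library and 2450 of 2993 in the 12-month bleomycin library.

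All 4 groups were Sftpc-creER;Rosa26-mTmG mice, in which a tamoxifen-activated Cre recombinase under the control of Sftpc switches a membrane reporter to GFP, so that AT2 cells and their descendants are marked. Every mouse, controls included, received 4 intraperitoneal doses of tamoxifen, and 14 days later either PBS or a single dose of bleomycin, an agent that injures the lung epithelium, at 0.8 U/kg into the trachea. Mice were 3 or 12 months old. PBS lungs were sampled at day 0 and bleomycin lungs at day 30, per the sample titles, and treatment cannot be told apart from the day. CD45- CD31- GFP+ cells of 3 pooled mice gave 1 library of the 10x Genomics 3' type per group, and the labels used here name neither strain, sex nor MHC haplotype. With 1 library per group there was no replicate spread and no test. Ranges in brackets, unless named otherwise, are exact 95% intervals for counting error. A gene was called higher or lower past 1.5-fold, and how far mice of a group differ was not measured.

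The AT2 cells held 10896642 counts (3-month PBS), 13289829 (12-month PBS), 20832613 (3-month bleomycin) and 31849343 (12-month bleomycin), with median counts per cell of 4563.5, 5137.5, 8552 and 12520 in that order. Levels are given as CPM, the usual counts-per-million scale, over the counts of these cells. All 12 AT2 markers were detected in every library and summed to between 218980 and 269410 CPM. Leukocyte RNA was a small share of these CD45- sorted cells and differed between libraries. In the order 3-month PBS, 12-month PBS, 3-month bleomycin and 12-month bleomycin, 9 leukocyte markers, without Lcp1, which was at 52.2 to 62.8 CPM in every library, summed to 4.68, 24.1, 23 and 129 CPM. T and NK cell markers were all at 0 in the 3-month PBS cells (9 of 9) and all detected in the 12-month bleomycin cells, where they summed to 19.2 CPM. In the same order of libraries, B cell markers without Cd79b summed to 1.01, 1.20, 10.1 and 108 CPM. Jchain alone made up 100 CPM of the last value. Neutrophil markers summed to 13.2, 16.3, 8.06 and 112 CPM. Transitional alveolar markers such as Krt8 and Clu summed to 691, 577, 1129 and 1686 CPM. Macrophage markers other than Lyz1 summed to 7.80, 30.2, 35.7 and 155 CPM, with Marco at 0 in all libraries but the 12-month bleomycin one. Lyz1 went the other way, at 13673, 10981, 8639.8 and 5311.5 CPM in the same order. With Lyz1 the list summed to 13681, 11011, 8675.5 and 5466.4 CPM. Pairs of libraries shared between 7 and 14 of the barcodes that were used.

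MHC class I molecules show peptides from inside the cell to CD8 T cells. Proteasomes cut proteins into peptides, the TAP transporter moves these into the endoplasmic reticulum, and tapasin holds a newly made heavy chain and B2m next to TAP until a fitting peptide is bound. Interferons are known to raise most genes of the pathway, through interferon regulatory factors (IRFs) among others, and NF-kB and the class I transactivator NLRC5 act on class I promoters as well. Immunoproteasome subunits replace the matching catalytic subunits of the constitutive proteasome and favour peptides that class I can bind.

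B2m lies on chromosome 2 (122147686 to 122153083, GRCm38, GENCODE M21), and the other 9 genes lie on chromosome 17, in or beside the major histocompatibility complex. There, Psmb9 (34181987 to 34187764, reverse strand), Tap1 (34187553 to 34197225) and Psmb8 (34197721 to 34201454) are neighbours. The annotated spans of Psmb9 and Tap1 share 212 bases at their starts, on opposite strands, and their promoter windows share 275 bases. H2-Q6 (35424850 to 35430055) and H2-Q7 (35439155 to 35443773) are close copies: their longest coding transcripts matched at 974 of 1030 aligned positions, so reads could be assigned to the wrong copy of the pair, and the pair is also given as a sum. H2-K1 (33996017 to 34000347, reverse strand) and H2-D1 (35262730 to 35267499) matched at 1335 of 1513 positions. H2-T23 lies at 36029773 to 36032855 (reverse strand) and Tapbp at 33915899 to 33929292.

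The promoters of B2m and of the 4 heavy chain genes with the motif pair named next are shown because class I genes are described through these elements. Sequences are the 250 bases before the RefSeq start (GRCm38.p6), read on the gene's own strand, with IRF core letters (AANNGAAA on either strand) and class I kB letters (GGGATTCC) in capitals.
B2m (chr2:122147437-122147686, forward strand): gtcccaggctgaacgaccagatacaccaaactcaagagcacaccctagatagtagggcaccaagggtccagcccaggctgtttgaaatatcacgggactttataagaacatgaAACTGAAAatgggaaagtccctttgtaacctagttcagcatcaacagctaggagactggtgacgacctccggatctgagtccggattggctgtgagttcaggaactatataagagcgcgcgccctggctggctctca
H2-K1 (chr17:34000348-34000597, reverse strand): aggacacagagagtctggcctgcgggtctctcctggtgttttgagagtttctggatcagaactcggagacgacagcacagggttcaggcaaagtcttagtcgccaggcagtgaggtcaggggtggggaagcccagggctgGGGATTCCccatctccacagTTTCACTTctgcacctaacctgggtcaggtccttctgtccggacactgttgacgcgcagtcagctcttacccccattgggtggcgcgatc
H2-D1 (chr17:35262844-35263093, forward strand): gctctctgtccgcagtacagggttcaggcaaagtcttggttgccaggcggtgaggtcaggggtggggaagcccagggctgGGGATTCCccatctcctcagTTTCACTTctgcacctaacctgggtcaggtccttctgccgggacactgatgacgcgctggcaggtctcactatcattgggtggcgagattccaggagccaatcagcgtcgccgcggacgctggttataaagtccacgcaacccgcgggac
H2-Q6 (chr17:35424600-35424849, forward strand): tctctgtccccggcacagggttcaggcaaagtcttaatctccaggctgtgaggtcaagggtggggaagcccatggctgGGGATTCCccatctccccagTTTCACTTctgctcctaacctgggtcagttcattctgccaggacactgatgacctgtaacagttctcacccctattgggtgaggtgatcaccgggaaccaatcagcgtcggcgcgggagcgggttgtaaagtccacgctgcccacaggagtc
H2-Q7 (chr17:35438905-35439154, forward strand): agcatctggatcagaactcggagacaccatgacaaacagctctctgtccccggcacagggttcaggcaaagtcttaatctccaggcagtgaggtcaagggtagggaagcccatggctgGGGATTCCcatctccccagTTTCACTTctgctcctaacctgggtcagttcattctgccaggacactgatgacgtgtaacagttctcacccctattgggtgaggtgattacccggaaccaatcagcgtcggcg
In each heavy chain promoter shown, the kB letters stood just before the IRF letters, which read TTTCACTT, the reverse complement of the core. B2m held the IRF letters without this kB core. In windows of 300 bases (250 before and 50 after the start), the IRF letters were present in 6 of the 10 genes, which were B2m and all 5 heavy chains, against 23.9% of 32851 RefSeq windows. The heavy chains are related genes, so these are not separate hits. The kB letters were present in 4 of 10, against 1.06% of windows, and these 4 are paralogs that share sequence. The promoter windows of H2-Q6 and H2-Q7 matched at 252 of 258 aligned positions. The NF-Y letters CCAAT were found in 9 genes (37.4% of all windows). All letters were searched on both strands. A match to letters describes the sequence and shows no binding.

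All 10 genes were lowest in the 3-month PBS library and highest in the 12-month bleomycin library. Their summed level was 3009 CPM with PBS and 5153 CPM with bleomycin at 3 months, and 7340 and 14642 CPM at 12 months. Uninjured 12-month cells thus stood above injured 3-month cells in the sum, and 7 of the 10 genes had that order. H2-T23, Tap1 and Tapbp were instead higher with bleomycin at 3 months than with PBS at 12 months, where the intervals of H2-T23 and Tap1 overlapped. The plot of levels by library shows the same order of points for most genes.

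**Figure D1:**
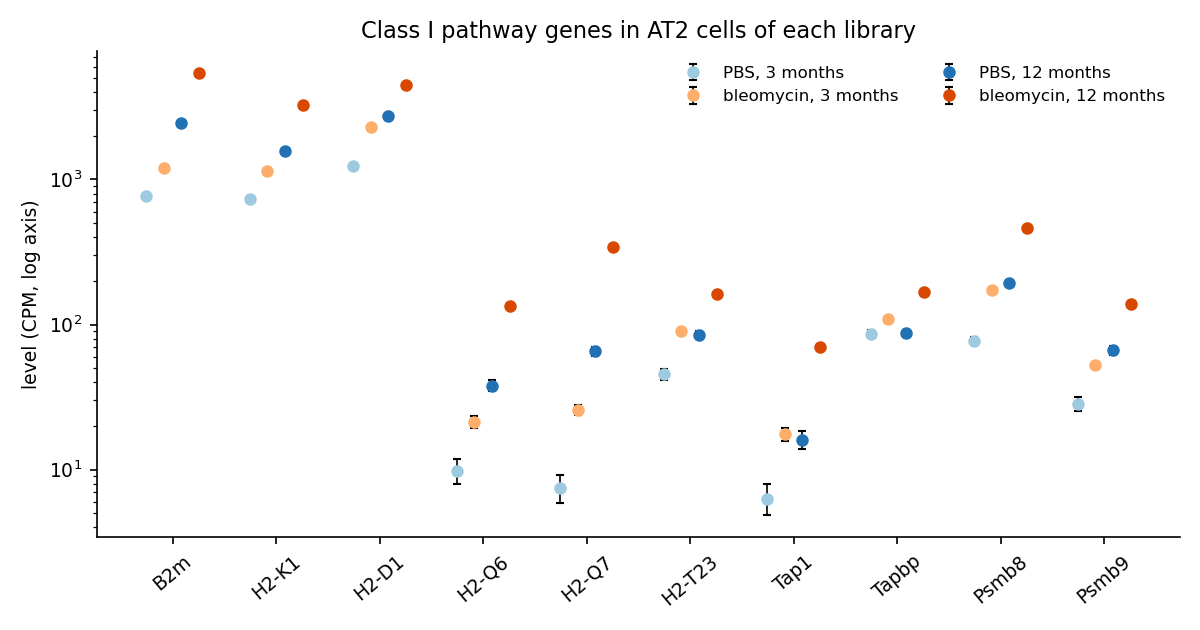
Level of each gene (vertical log axis, CPM) in the AT2 cells of the 4 libraries, 1 point per library with its exact 95% Poisson interval for counting error. The 12-month bleomycin point is the highest for all 10 genes, and for Tapbp both PBS points lie close together (85.5 and 86.8 CPM).

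B2m, the invariant light chain that every class I heavy chain needs to reach the cell surface, was at 773 CPM (3-month PBS), 1205 CPM (3-month bleomycin), 2467 CPM (12-month PBS) and 5405 CPM (12-month bleomycin). It was 1.56-fold higher with bleomycin than with PBS at 3 months (1.52 to 1.6) and 2.19-fold higher at 12 months (2.17 to 2.22). The difference between ages was larger than that between treatments, 3.19-fold with PBS (3.12 to 3.27) and 4.49-fold with bleomycin (4.43 to 4.55).

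H2-K1, a classical heavy chain that presents peptides to CD8 T cells, was at 734, 1148, 1574 and 3246 CPM in the same order of libraries. H2-D1, the other classical heavy chain, was at 1243, 2310, 2750 and 4510 CPM. The 2 genes were near each other in the ratio of 12 to 3 months with PBS, 2.14-fold for H2-K1 (2.09 to 2.20) and 2.21-fold for H2-D1 (2.17 to 2.26). They parted in the ratio of bleomycin to PBS. H2-K1 was 1.56-fold higher at 3 months (1.52 to 1.6) and 2.06-fold at 12 months (2.03 to 2.09), whereas H2-D1 was 1.86-fold higher at 3 months (1.82 to 1.89) and 1.64-fold at 12 months (1.62 to 1.66). H2-D1 was the gene for which the bleomycin ratio at 12 months over that at 3 months was lowest, at 0.882 (0.863 to 0.902).

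H2-Q6 and H2-Q7 encode nonclassical heavy chains of the Qa-2 type and spanned the widest range. H2-Q6 stood at 9.73, 21.4, 37.8 and 135 CPM (3-month PBS and bleomycin, then 12-month PBS and bleomycin), from 106, 446, 502 and 4307 counts. H2-Q7 stood at 7.43, 25.8, 65.4 and 342 CPM, from 81, 537, 869 and 10884 counts, so that its highest level was 46.0 times its lowest. With PBS, H2-Q7 was 8.75-fold higher at 12 than at 3 months (7.0 to 11.2), and with bleomycin 13.2-fold (12.2 to 14.5). Bleomycin cells were above PBS cells by 3.45-fold at 3 months (2.74 to 4.44) and 5.22-fold at 12 months (4.88 to 5.61). Summed, the pair was 2.74-fold (2.35 to 3.23) and 4.62-fold (4.37 to 4.89) higher with bleomycin, and 6.0-fold (5.16 to 7.04) and 10.1-fold (9.48 to 10.8) higher with age, in PBS and bleomycin cells respectively. Both genes were under 20 CPM in the 3-month PBS cells and passed the level minimum only through the higher library.

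H2-T23, the Qa-1 heavy chain, a ligand of inhibitory receptors on NK cells, moved in a narrower range of 45.3, 90.5, 84.7 and 163 CPM. Its bleomycin ratio was 1.99 at 3 months (1.81 to 2.21) and 1.92 at 12 months (1.80 to 2.05), and the interval of the ratio between them, 0.964 (0.853 to 1.08), held 1. The difference between ages was 1.87-fold with PBS (1.68 to 2.08) and 1.80-fold with bleomycin (1.71 to 1.90).

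Tap1, a subunit of the peptide transporter, was at 6.24 CPM (3-month PBS, 68 counts), 17.6 CPM (3-month bleomycin), 16 CPM (12-month PBS) and 69.7 CPM (12-month bleomycin). The 12-month bleomycin library stood apart from the other 3, with a bleomycin ratio of 4.34 (3.78 to 5.03) against 2.80 at 3 months (2.17 to 3.70). Tapbp, which tethers class I molecules to the transporter, was at 85.5, 110, 86.8 and 168 CPM. It was the exception among the 10 genes for age in PBS cells, with a ratio of 1.01 (0.930 to 1.11), and it was 1.28-fold higher with bleomycin at 3 months (1.19 to 1.39) and 1.94-fold at 12 months (1.82 to 2.07).

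Psmb8, which takes the place of Psmb5 in the immunoproteasome, was at 77.1, 173, 193 and 466 CPM. Psmb9, which takes the place of Psmb6, was at 28.5, 52.4, 66.2 and 138 CPM. Their bleomycin ratios were alike at both ages: for Psmb8 2.24 (2.08 to 2.42) at 3 months and 2.41 (2.31 to 2.52) at 12 months, and for Psmb9 1.83 (1.62 to 2.09) and 2.08 (1.93 to 2.24). With age, Psmb8 was 2.5-fold higher in PBS cells (2.31 to 2.71) and Psmb9 2.32-fold (2.04 to 2.65).

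Counted over the 10 genes, 9 were at least 1.5-fold higher with bleomycin at 3 months, where 8.99% of the 4796 genes at 20 CPM or more in either library were that much higher and 11.1% that much lower. At least 2-fold higher were 4 of 10, against 2.71% of all. At 12 months all 10 were at least 1.5-fold higher with bleomycin, against 18.5% of 4701 genes (10.6% lower), and 7 were at least 2-fold higher, against 6.91%. In the comparison of ages with PBS, 9 of 10 passed 1.5-fold, where only 2.08% of 4526 genes did (3.73% lower), and 8 passed 2-fold, against 0.862%. With bleomycin, all 10 passed 1.5-fold between ages, against 4.60% of 4586 genes (2.83% lower), and 7 passed 2-fold, against 2.12%. None of the 10 was 1.5-fold lower in any of these comparisons. Tap1 was below 20 CPM in both libraries of 2 comparisons, bleomycin at 3 months and age with PBS, and is counted here all the same.

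The median log2 ratio of the 10 genes was 0.95 for bleomycin at 3 months, 1.09 at 12 months, 1.27 for age with PBS and 1.47 for age with bleomycin. Over all tested genes it was -0.01, 0.10, -0.11 and 0.00. The 4 comparisons share libraries and so do not bear on each other independently. The share of higher genes among all genes past 1.5-fold depended on the scaling: it was 44.8% at 3 months (59.1% when the 20 most abundant genes were left out of the total), 63.6% at 12 months (52.7% with median-of-ratios scaling) and 35.7% for age with PBS (56.0% with median-of-ratios scaling, 45.9% without the 20 genes). Median-of-ratios scaling moved the all-gene median for age with PBS from -0.11 to -0.01 and left the direction of every one of the 10 genes as it was, as did leaving out the 20 genes.

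**Figure D2:**
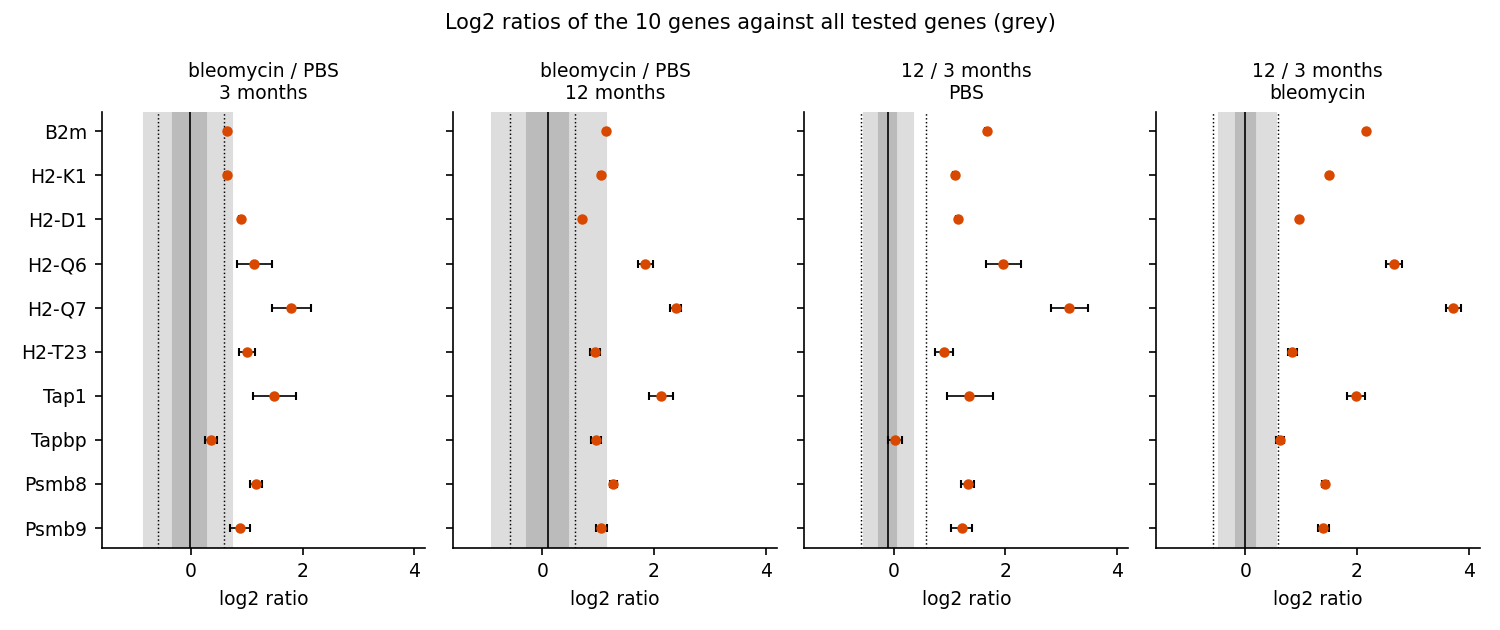
Log2 ratio of each gene (points, with 95% counting intervals) in the 4 comparisons, over the 5th to 95th percentile (light grey), the 25th to 75th percentile (dark grey) and the median (line) of all tested genes, with dotted lines at 1.5-fold. Tapbp is the only point inside the light grey band for age with PBS, while in the 12-month bleomycin comparison the band is wider and holds 6 of the points.

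The bleomycin ratio was at least 1.5-fold larger at 12 than at 3 months for 4 of the 10 genes, against 7.92% of 5039 genes, and 1.5-fold smaller for none, against 4.07%. The 4 were H2-Q6 (1.63-fold, 1.29 to 2.04), Tap1 (1.55-fold, 1.15 to 2.07), H2-Q7 (1.51-fold, 1.17 to 1.90) and Tapbp (1.51-fold, 1.36 to 1.67). All 4 lay near the limit, and the count was 1 under either other scaling. The median log2 difference over the 10 genes was 0.45 and that over all tested genes 0.09. Among all genes past 1.5-fold, 66.1% had the larger ratio at 12 months, 53.2% with median-of-ratios scaling and 47.9% without the 20 most abundant genes. Psmb8 (1.08-fold, 0.987 to 1.18), Psmb9 (1.13-fold, 0.980 to 1.31) and H2-T23 had intervals that held 1. For B2m and H2-K1 the ratio was 1.41-fold and 1.32-fold larger.

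The rest of the class I pathway followed the 10 genes only in part. Of 13 other class I and class I-like heavy chain genes in the files, 4 reached 20 CPM in a 12-month library. H2-Q4, a nonclassical heavy chain, was at 37.2, 84.9, 99.6 and 214 CPM (3-month PBS and bleomycin, 12-month PBS and bleomycin). It was near the pattern of the 10 genes in the comparisons of treatment and of age. Its log2 difference of bleomycin ratios, 12 minus 3 months, was -0.09 (-0.27 to 0.09), against a median of 0.45 for the 10 genes. H2-T22, a ligand of some gamma delta T cells, was at 4.77, 8.93, 12.1 and 56.1 CPM, with a bleomycin ratio 2.49-fold larger at 12 than at 3 months (1.75 to 3.51). Fcgrt, the neonatal Fc receptor heavy chain, which pairs with B2m as well, stayed between 21.2 and 26.6 CPM.

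Most peptide loading and trimming genes were higher with bleomycin at 12 months and showed little difference between ages with PBS. Of the 8 genes, 6 reached 20 CPM in a 12-month library and 5 of these were at least 1.5-fold higher with bleomycin at 12 months, against 18.5% of all tested genes. At 3 months Calr was the only one of 5 past 1.5-fold, against 8.99%. Between ages in PBS cells, none of the 5 that reached 20 CPM was past 1.5-fold, and their median was -0.11, the same as over all genes. Calr, the calreticulin of the loading complex, was at 214, 396, 198 and 467 CPM, so it was 1.85-fold higher with bleomycin at 3 months (1.77 to 1.94) and 0.927-fold with age in PBS cells (0.877 to 0.981). Tap2, the partner of Tap1 in the transporter, was at 18.0, 24.8, 24.9 and 46.7 CPM, a smaller range than that of Tap1.

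All 14 constitutive proteasome core subunit genes reached 20 CPM. With bleomycin, 9 were at least 1.5-fold higher at 3 months (8.99% of all tested genes) and 10 at 12 months (18.5%). Between ages none passed 1.5-fold, where few genes did (2.08% with PBS, 4.60% with bleomycin), and their median log2 ratios were 0.13 with PBS and 0.24 with bleomycin, against -0.11 and 0.00 over all genes. Psmb5, the constitutive counterpart of Psmb8, was at 118, 203, 110 and 221 CPM (3-month PBS and bleomycin, 12-month PBS and bleomycin). In counts, Psmb8 was thus 0.654 times Psmb5 in 3-month PBS cells (0.599 to 0.714), 0.850 times in 3-month bleomycin cells, 1.76 times in 12-month PBS cells (1.65 to 1.88) and 2.11 times in 12-month bleomycin cells. The ratio of Psmb9 to Psmb6 was 0.155, 0.197, 0.336 and 0.443 in the same order. Psmb10, the immunoproteasome subunit that replaces Psmb7, did not show this step with age in PBS cells: its ratio to Psmb7 was 0.366 (0.320 to 0.418) at 3 months and 0.403 (0.361 to 0.451) at 12 months. The activator genes Psme1 and Psme2 were 1.59-fold and 1.69-fold higher with bleomycin at 3 months and 1.11-fold and 1.28-fold with age in PBS cells.

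Among regulators, Nlrc5, the class I transactivator, was detected at 0.367 CPM (3-month PBS, 4 counts), 1.30 CPM (3-month bleomycin, 27 counts), 1.5 CPM (12-month PBS, 20 counts) and 5.02 CPM (12-month bleomycin, 160 counts). It had the order of the summed 10 genes, with wide intervals: the ratio for age in PBS cells was 3.74 (1.37 to 16.5). Irf1, an interferon-induced activator of class I genes, was at 15.7, 16, 15.3 and 33.5 CPM, so that the first 3 libraries lay close together and the 12-month bleomycin cells stood apart. Rfx5, a subunit of the factor that recruits NLRC5, lay between 7.58 and 9.91 CPM. Of the interferon receptor genes, Ifngr1 lay between 30.7 and 37.5 CPM, and Ifnar2 at 34.9, 57.9, 41.8 and 57.7 CPM. Interferon genes themselves were near absent: all 7 searched were at 0 counts in 3 libraries. The exact interval of 0 counts reaches 0.339 CPM (3-month PBS), 0.278 CPM (12-month PBS) and 0.177 CPM (3-month bleomycin). Ifng had 18 counts in the 12-month bleomycin cells, 0.565 CPM.

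Interferon response genes were far higher in the 12-month bleomycin library than in the other 3 and differed among themselves between ages with PBS. Bst2, an antiviral membrane protein, was at 21.8 CPM (3-month PBS), 53.9 CPM (3-month bleomycin), 47.6 CPM (12-month PBS) and 273 CPM (12-month bleomycin). Isg15, a ubiquitin-like protein made after interferon, was at 6.42, 16.2, 6.55 and 196 CPM. Between ages in PBS cells the ratio was 2.18 for Bst2 (1.88 to 2.54) and 2.91 for Ifi27l2a (2.53 to 3.36). It was 1.02 for Isg15 (0.735 to 1.42) and 2.02 for Ifitm3 (1.57 to 2.62), each under 20 CPM in both libraries. Whatever the level, the median log2 ratio of the 20 genes was 0.86 there, against 1.27 for the 10 class I genes. Most of the 20 were near the floor. For the 2 that reached 20 CPM the median was 1.33, against 1.21 for the 9 class I genes that did. With bleomycin at 12 months, Isg15 was 29.8-fold higher (24.2 to 37.5), Ifitm3, which blocks viral entry, 27.8-fold (24.4 to 32.0) and B2m 2.19-fold. The 13 response genes that reached 20 CPM were all at least 2-fold higher with bleomycin at 12 months, against 6.91% of tested genes. All 20 were so whatever their level, and Bst2 and Ifi27l2a alone reached 20 CPM in the PBS cells of that age. Between ages in PBS cells, 2 response genes reached 20 CPM and both were at least 1.5-fold higher, against 2.08% of tested genes. Whatever their level, 12 of the 20 were that much higher, many of them from few counts. Among all genes with at least 10 counts over these 2 libraries, 7.43% were that much higher.

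MHC class II genes, which AT2 cells also express, differed less between ages than the class I genes, with a median log2 ratio over 11 genes of 0.42 with PBS and 0.69 with bleomycin. Cd74, the class II invariant chain, was 1.65-fold higher with bleomycin at 3 months (1.63 to 1.67), 2.10-fold at 12 months (2.09 to 2.12) and 1.23-fold with age in PBS cells (1.21 to 1.24). In the class II list, 7 genes reached 20 CPM, of which 5 passed 1.5-fold with bleomycin at 3 months (8.99% of all tested genes), 6 at 12 months (18.5%) and 2 with age in PBS cells (2.08%), all higher. H2-Eb1, a class II beta chain, was at 23.3, 36.8, 29.4 and 524 CPM, a 17.8-fold bleomycin ratio at 12 months (16.1 to 19.7), while H2-Ab1, the beta chain of the other class II pair, was at 830, 1673, 1151 and 2692 CPM. The class II beta chains therefore did not keep their ratio in the 12-month bleomycin library.

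The genes with profiles most like the median of the 10, over 4 libraries and 4024 genes at 20 CPM or more on average, were H2-Q4, Nfkbia, Ifi27, C3, Ogfrl1, Gpx2, Ly6c2, Ifi35, Fos and Fosb. The measure was the root-mean-square difference of centred log2 CPM, which was 0.06 for H2-Q4, 0.18 for Nfkbia, an NF-kB inhibitor, and 0.35 for Fosb. Nfkbia stood at 60.5 and 100 CPM (3-month PBS and bleomycin) and 107 and 304 CPM (12-month PBS and bleomycin). C3, the central complement component, stood at 35.5, 73.4, 74.5 and 121 CPM. With 4 points per gene, such likeness is a description of these libraries.

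Single cells were compared after each was thinned to 3000 UMIs (unique molecular identifiers, which count RNA molecules), which left 1952, 2244, 2328 and 2450 cells (3-month PBS and bleomycin, 12-month PBS and bleomycin) and dropped 356, 55, 242 and 0 shallower cells. The 10 genes together gave a median of 8 UMIs per cell (10th to 90th percentile 4 to 16) in 3-month PBS, 14 (7 to 26) in 3-month bleomycin, 20 (11 to 34) in 12-month PBS and 40 (20 to 70) in 12-month bleomycin cells. Without thinning the medians were 12, 39, 34 and 171. The distribution as a whole stood higher at 12 months: the 10th percentile in 12-month PBS cells, 11, lay at the 75th percentile of 3-month PBS cells. Above the 90th percentile of the 3-month PBS cells were 68.7% of 12-month PBS cells (66.8 to 70.6, exact binomial over cells, which are not replicates). That share was 8.20% in the 3-month PBS cells themselves, 36.6% with bleomycin at 3 months and 95.1% with bleomycin at 12 months.

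**Figure D3:**
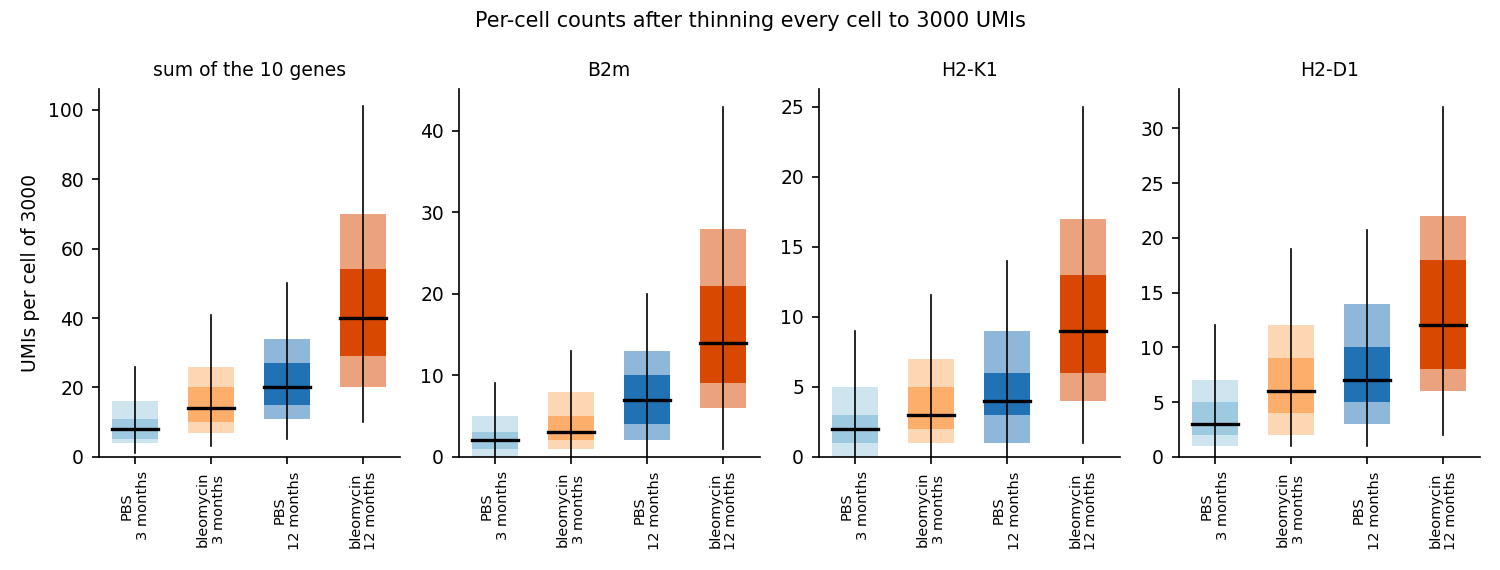
UMIs per cell (vertical axis) of the 10 genes summed and of B2m, H2-K1 and H2-D1, in cells thinned to 3000 UMIs. Black line, median; dark box, 25th to 75th percentile; light box, 10th to 90th; thin line, 1st to 99th. The median of the sum goes from 8 in 3-month PBS cells to 40 in 12-month bleomycin cells, and the spread in UMIs widens with it.

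Cells varied beyond counting noise in every library. The variance of the summed UMIs over their mean, which is 1 for counting noise alone, was 3.15, 4.10 and 4.21 in 3-month PBS, 3-month bleomycin and 12-month PBS cells and 9.08 in 12-month bleomycin cells, a measure that grows with the mean. Relative to the mean, the SD over cells was 0.597, 0.517, 0.440 and 0.458 in the same order, so the 12-month bleomycin cells were not the most spread on that scale. Across cells, B2m and H2-K1 had a Pearson correlation of 0.34, 0.38, 0.39 and 0.54 in that order, and B2m and H2-D1 one of 0.37, 0.41, 0.42 and 0.59. These cells share a library, and higher counts alone raise such values. The sum of the 10 genes and the interferon response list correlated at 0.12, 0.16, 0.11 and 0.48.

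Cells were then divided by their UMIs of the 20 interferon response genes, none of which is among the 10. In 3-month PBS cells 81.3% had 0 such UMIs, against 63.0% with bleomycin at 3 months, 66.8% with PBS at 12 months and 10.0% with bleomycin at 12 months. In cells with 0, the 10 genes summed to 2871, 4878, 7102 and 10091 CPM (3-month PBS and bleomycin, 12-month PBS and bleomycin). The age difference with PBS was thus 2.47-fold in these cells (2.42 to 2.52), beside 2.44-fold in all cells before thinning. Cells with 0 were most of the PBS cells, so these 2 values are not independent. With bleomycin at 12 months they were only 10.0%, so values there set a small part against the whole. The bleomycin ratio at 12 months was 1.42 in cells with 0 (1.39 to 1.46), against 1.99 in all cells before thinning. At 3 months it was 1.70 (1.66 to 1.74), against 1.71. At 12 months the genes differed in this ratio: in cells with 0 UMIs, H2-D1 was 1.21-fold higher with bleomycin (1.16 to 1.26) and H2-Q7 2.69-fold (2.16 to 3.34).

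Cells with 3 or more interferon response UMIs had more class I RNA than cells with 0 in every library: 1.68-fold in 3-month PBS (1.5 to 1.87, 23 cells), 1.48-fold in 3-month bleomycin (1.41 to 1.55, 79 cells), 1.20-fold in 12-month PBS (1.15 to 1.25, 92 cells) and 1.64-fold in 12-month bleomycin (1.6 to 1.68, 1532 cells). In the 12-month bleomycin library the difference was 2.52-fold for H2-Q7 (2.10 to 3.06), 2.40-fold for Tap1 (1.63 to 3.69) and 1.38-fold for Tapbp (1.12 to 1.71). The plot by interferon UMIs shows the same order of libraries within each class of cells, with overlapping intervals for H2-Q7 in the cells with 3 or more of every library but the 12-month bleomycin one. A count of 0 in 3000 UMIs is a limit of depth and does not mark a cell without these RNAs.

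**Figure D4:**
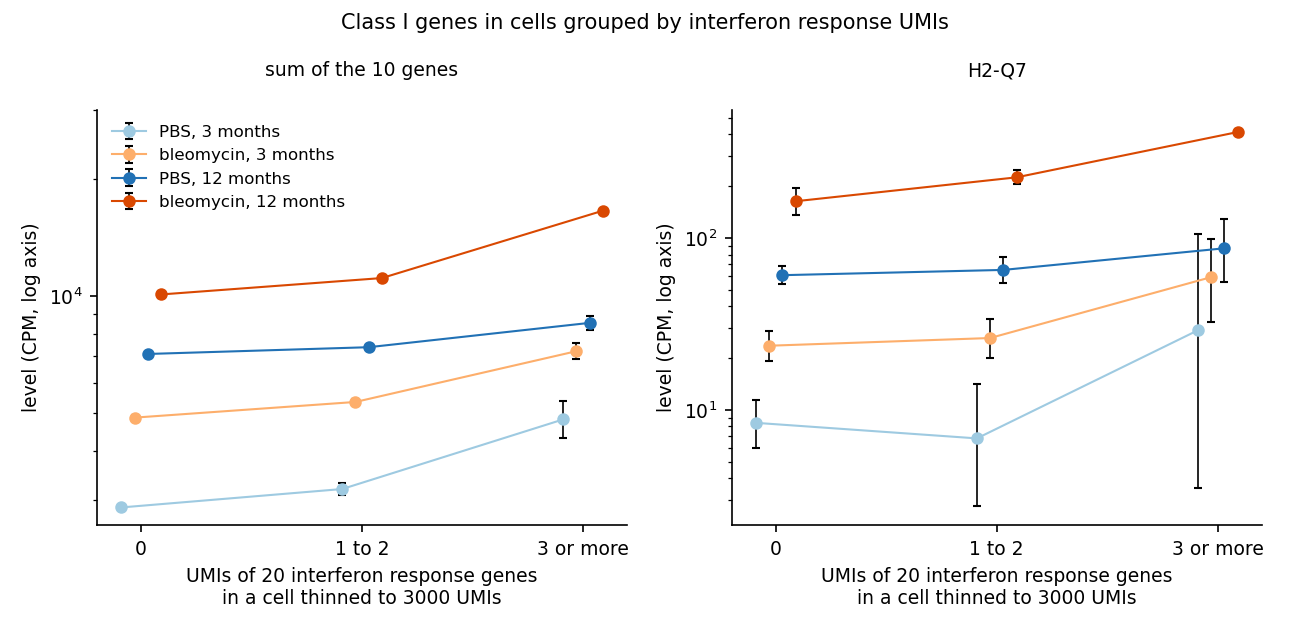
Level (vertical log axis, CPM, with exact 95% Poisson intervals) of the 10 genes summed and of H2-Q7 in cells with 0, 1 to 2 or 3 or more UMIs of 20 interferon response genes, by library. In cells with 0 UMIs the sum is 2871 CPM in 3-month PBS and 7102 CPM in 12-month PBS.

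Leukocytes carry class I RNA. Like the class I genes, the 9 leukocyte markers without Lcp1 were lowest with PBS at 3 months and highest with bleomycin at 12 months. They were alike in 3-month bleomycin and 12-month PBS (23 and 24.1 CPM). Neutrophil markers were instead lowest with bleomycin at 3 months (8.06 CPM). In barcodes with under 5% Sftpc and at least 5 leukocyte-marker UMIs (7 cells in 3-month PBS, 69 in 3-month bleomycin, 42 in 12-month PBS and 319 in 12-month bleomycin), B2m stood at 3566, 2852, 5193 and 7007 CPM. If every leukocyte-marker count other than Lcp1 in the AT2 cells had come with RNA of the makeup of these barcodes, that RNA would be 0.0530%, 0.373%, 0.244% and 1.80% of the total. For the 12-month bleomycin cells it would carry 2.34% of the B2m level and, the highest value among the 10 genes, 2.78% of the Psmb9 level. The barcodes were chosen for their marker counts, leukocytes with fewer marker counts would carry more, and the part of leukocyte RNA in the differences was not tested. With every AT2 cell left out that had a leukocyte-marker UMI other than Lcp1 (a choice made after seeing the data, leaving 2261, 1955, 2375 and 786 cells), the median log2 ratio of the 10 genes was 0.94 and 1.05 for bleomycin at 3 and 12 months and 1.26 and 1.40 for age with PBS and with bleomycin.

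Ratios between class I genes were also taken in the leukocyte-marker cells of the same libraries. These hold some AT2 RNA: Sftpa1 and Sftpb together, which did not define them, stood at 10.9%, 9.86%, 8.58% and 10.8% of their AT2 level (3-month PBS and bleomycin, 12-month PBS and bleomycin). H2-Q7 over H2-Q6 in AT2 cells was 0.764 (0.565 to 1.03), 1.20 (1.06 to 1.37), 1.73 (1.55 to 1.94) and 2.53 (2.44 to 2.62) in that order. In leukocyte-marker cells it was 0.5 from 3 counts (0.00847 to 9.60), 1.19 (0.578 to 2.47), 1.68 (0.926 to 3.14) and 2.47 (2.17 to 2.83), and these intervals overlap. H2-D1 over H2-K1 was lowest in the 12-month bleomycin library in both: 1.39 (1.38 to 1.40) in AT2 cells, against 1.69 to 2.01 in the other libraries, and 1.71 (1.65 to 1.76) in leukocyte-marker cells, against 2.91 to 3.81. B2m over the 5 heavy chains was highest there in both, at 0.644 in AT2 cells, against 0.335 to 0.547, and at 1.06 in leukocyte-marker cells, against 0.532 to 0.603. The class II ratio H2-Eb1 over H2-Ab1 was 0.195 in the AT2 cells of that library, against 0.0220 to 0.0281 in the others, and 0.366 in its leukocyte-marker cells, against 0.0143 to 0.0173.

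**Figure D5:**
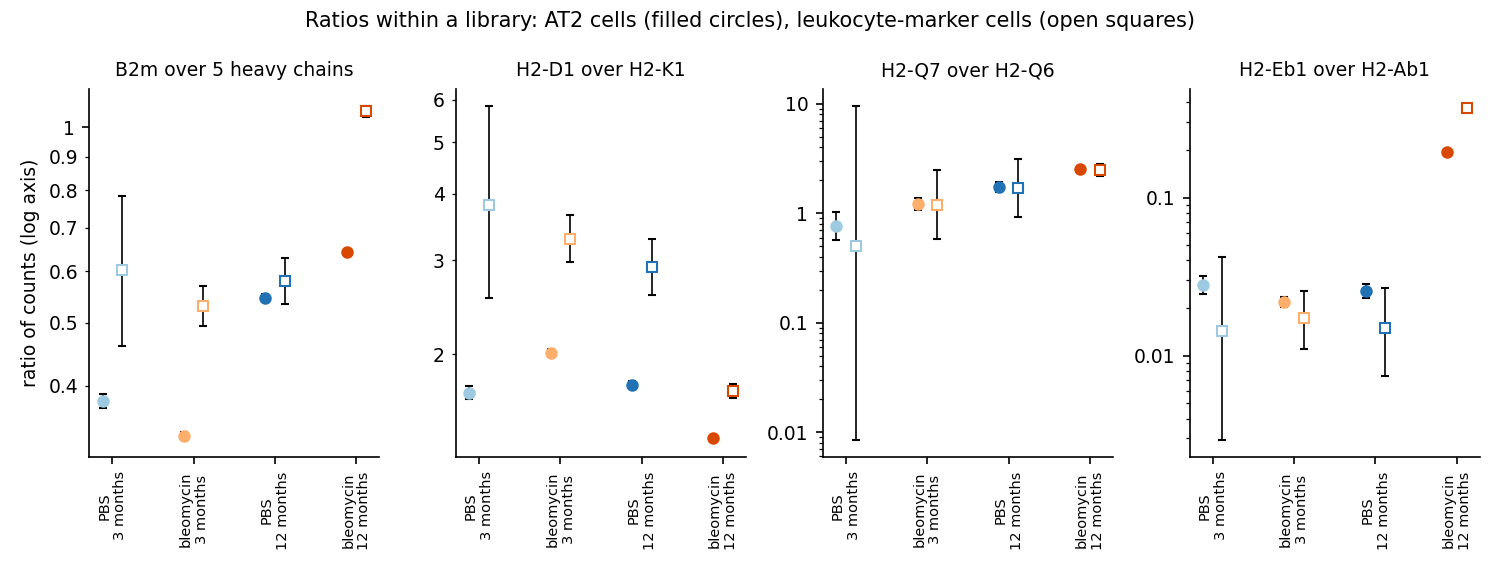
Ratio of counts of 2 genes or gene groups within a library (vertical log axis), in AT2 cells (filled circles) and leukocyte-marker cells (open squares), with exact 95% intervals. In the 12-month bleomycin library H2-D1 over H2-K1 is lowest and H2-Eb1 over H2-Ab1 highest in both kinds of cell.

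For H2-D1 over H2-K1 and H2-Eb1 over H2-Ab1, the 12-month bleomycin library thus stood apart in both kinds of cell. For B2m over heavy chains it stood apart in leukocyte-marker cells. In AT2 cells that ratio was 0.547 in 12-month PBS, nearer to the 0.644 of 12-month bleomycin than to the 3-month values. Those were 0.379 with PBS and 0.335 with bleomycin. The leukocyte-marker cells were chosen by general leukocyte markers. Which leukocyte types they hold was not compared between libraries, and the part of such a mix in these ratios was not tested. The labels used here give no MHC haplotype, counts were made against the reference build, and whether the pools of mice differ in MHC sequence was not tested. The B2m ratio in leukocyte-marker cells did not show the difference between PBS ages seen in AT2 cells (0.603, 0.461 to 0.783, against 0.580, 0.534 to 0.630), with 7 cells behind the first value.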

How the data were processed

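Gene counts per cell were deposited by the authors as 1 matrix of whole-number UMI counts per library. Per the submitters' processing notes, Cell Ranger and Seurat 3.2.2 were used with the mm10 build. The Cell Ranger version and the strand setting of the counting are not given in the sources used here. The genes and lists were chosen with earlier results of these data known, and the motif letters with the sequences in view.

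Counts were summed over the AT2 cells of each library (10896642 to 31849343 counts, so that 1 count is worth 0.0918 to 0.0314 CPM) and divided by their total. Ratios used a prior of 0.5 counts, with exact conditional-binomial 95% intervals. Intervals for the difference of bleomycin ratios came from 10000 gamma draws. All intervals cover counting error only, apart from the binomial range over cells, and none covers the spread between mice. The shares of genes past a fold were taken over genes that reached 20 CPM in a compared library. Interval code was tested on simulated data. Tools were Python 3.11.15, numpy 2.4.6, scipy 1.17.1, pandas 2.3.3, biopython 1.88 and scanpy 1.11.5.

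Beside the 10 genes, those named were up to 4 genes per list and comparison with the largest ratios past 1.5-fold, regulators, receptors and class II genes, and the 10 nearest profiles. Fcgrt and H2-Q2 were named after their values were seen. H2-Bl, H2-K2, H2-Q5, H2-Q8, H2-Q9 and H2-T10 were not analysed here, and some other results are not reported here. Doublets were kept. Scrublet's own threshold called 11, 0, 0 and 1 barcodes, so an alternative left out the 46, 60, 55 and 72 highest-scoring barcodes (3-month PBS, 12-month PBS, 3-month bleomycin and 12-month bleomycin). Other alternatives changed the scaling, the Sftpc minimum, the cell filter, leukocyte-marker cells, cell weights, thinning and the fold.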

Additional observations from a re-analysis of the deposited data

Results flagged for a closer look

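The bleomycin ratio of a class I-like heavy chain gene lay above 1 at 3 months and below 1 at 12 months, neither past 1.5-fold. The difference was not tested, since each group is 1 library. H2-Q2 was at 1.19-fold with bleomycin at 3 months (1.02 to 1.39) and 0.874-fold at 12 months (0.782 to 0.980), a difference of -0.44 on the log2 scale. Over all tested genes, the 5th to 95th percentile of that difference ran from -0.53 to 0.72. The levels of H2-Q2 were 22.5 and 26.8 CPM at 3 months and 34.2 and 30 CPM at 12 months, with PBS and bleomycin.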

How the results depend on the processing

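A log2 ratio was called reversed only if its sign changed and its main interval left out 0. Sign changes of ratios whose interval held 0 were not counted. Of 610 log2 ratios of single genes under 12 other settings, 0 reversed in that sense, 524 stayed inside the interval for counting error and 86 fell outside it. The median over the 10 genes ranged from 0.88 to 1.03 (bleomycin, 3 months), 1.01 to 1.11 (bleomycin, 12 months), 1.23 to 1.37 (age, PBS) and 1.36 to 1.5 (age, bleomycin). The median difference of bleomycin ratios ranged from 0.32 to 0.46. The number of genes with a bleomycin ratio at least 1.5-fold larger at 12 than at 3 months, 4, depended on the processing. It was 1 with median-of-ratios scaling, 1 without the 20 most abundant genes in the total, 1 with a strict cell filter (1000 genes, 10% mitochondrial counts), 2 with Sftpc at 2% or more and 2 with no Sftpc minimum. It was 0 without cells that had any leukocyte-marker UMI and 2 without those that had one other than Lcp1, a setting chosen after seeing the data. The cause was not tested. At 2-fold it was 0, and the 9 genes higher with bleomycin at 3 months became 4. With 10 counts as the minimum, more of all genes were 1.5-fold higher. The share went from 8.99% to 17.1% (bleomycin, 3 months), 18.5% to 25.5% (bleomycin, 12 months) and 2.08% to 7.43% (age, PBS). With cells thinned to 2000 UMIs, the share above the 90th percentile of 3-month PBS cells was 41.2% in 3-month bleomycin cells, against 36.6%. In the 3-month PBS cells themselves it was 9.99%, against 8.20%. No paired analysis was possible because each group is 1 library. No library could be left out for the same reason, so how far mice of a group differ is the main limit. Low counts limit Tap1, H2-Q6 and H2-Q7 in 3-month PBS cells.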

Other observations

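T and NK cell ligand genes were below 20 CPM in every library (10 genes). Among interferon response genes, Ifi27l2a stood at 23.7 CPM (3-month PBS), 23.1 CPM (3-month bleomycin), 68.9 CPM (12-month PBS) and 853 CPM (12-month bleomycin). It was thus level with PBS after bleomycin at 3 months (0.974-fold, 0.837 to 1.14) and 12.4-fold higher at 12 months (11.6 to 13.2), whereas Bst2 was 2.46-fold higher at 3 months (2.14 to 2.85). Socs3, a feedback inhibitor of cytokine signals, stood at 27.5 and 62.1 CPM at 3 months and 35.4 and 73.1 CPM at 12 months, with PBS and bleomycin.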
